A study of Mus musculus with 13 samples.

Results

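The genes followed here were the 10 lipogenesis and SREBP genes Srebf1, Srebf2, Acly, Acaca, Fasn, Elovl6, Scd1, Scd2, Me1 and Thrsp, taken by symbol from a table of 21868 genes and read in each of 13 gastrocnemius muscles. All 10 were in the table and all 10 had a mean normalized count of at least 10, the minimum for testing, which 12303 genes reached. The mice were male C57BL/6N animals, 7 weeks old at the start, that were fed a diet with 60 kcal% fat for 15 to 17 weeks until obese. All of them, the controls included, were then moved to standard chow and treated for 3 weeks, so no lean mouse and no mouse left on the high-fat diet served as a reference. Vehicle-treated mice (Vehicle+placebo, mice 1 to 5) received phosphate-buffered saline. Semaglutide-treated mice (Semaglutide+placebo, mice 13 to 17) received semaglutide, an agonist of the GLP-1 receptor, at 30 nM/kg/day into the peritoneum. Semaglutide + ketone ester-treated mice (Semaglutide+ketone ester, mice 19, 21 and 22) received the same dose of semaglutide together with the ketone ester Qitone in the drinking water at 0.114 g/mL. RNA was taken from whole gastrocnemius, and the question was whether transcripts of fat synthesis differed between the treatments and whether they followed the amount of adipocyte RNA in the tissue.

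Lipogenesis builds fatty acids from citrate. ATP-citrate lyase (Acly) releases acetyl-CoA in the cytosol, acetyl-CoA carboxylase 1 (Acaca) turns it into malonyl-CoA, and fatty acid synthase (Fasn) joins these units into palmitate with NADPH that malic enzyme (Me1) helps to supply. Elovl6 lengthens palmitate to stearate, the stearoyl-CoA desaturases Scd1 and Scd2 add a double bond, and Thrsp (Spot 14) is a nuclear protein tied to the expression and activity of the lipogenic enzymes. SREBP-1 and SREBP-2, the products of Srebf1 and Srebf2, are made as precursors in the endoplasmic reticulum. They are carried to the Golgi by SCAP, cut there, and enter the nucleus, where they switch on genes of fatty acid and cholesterol synthesis. Adipocytes and liver are the classic sites of this pathway, and fat cells lie between and around muscle fibres, so that a muscle sample can hold adipocyte RNA. Transcript levels do not report the cleavage of SREBP or the activity of an enzyme.

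SREBP binds short sterol regulatory elements. The upstream 250 bases of the listed genes were therefore read from the RefSeq promoter table (GRCm38.p6), which held 11 start sites for 8 of the 10 genes. Scd1 and Scd2 were not matched in it. The letters TCACCCNA, chosen after the sequences had been read and searched on both strands, occurred upstream of 3 of the 11 starts. They occurred in 3.24% of all 32851 promoters of this length in the table. Because the letters were chosen with these sequences known, comparing the shares is no test of enrichment. The 3 sequences are shown to place this element beside the regulators and the synthase discussed next, 5′ to 3′ on the strand of the gene, with the match in capitals. For Srebf1 it is the innermost of 3 starts, at chr11:60210472-60210721 on the minus strand, with the match beginning 15 bases before the start. For Srebf2 it is chr15:82147019-82147268 on the plus strand, with the match beginning 162 bases before the start. For Fasn it is chr11:120824548-120824797 on the minus strand, with the match beginning 128 bases before the start.
Srebf1: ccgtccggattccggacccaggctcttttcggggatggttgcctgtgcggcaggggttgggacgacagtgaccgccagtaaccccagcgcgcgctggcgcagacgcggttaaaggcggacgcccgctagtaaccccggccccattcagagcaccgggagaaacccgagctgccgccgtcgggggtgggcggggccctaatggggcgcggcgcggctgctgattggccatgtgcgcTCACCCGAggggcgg
Srebf2: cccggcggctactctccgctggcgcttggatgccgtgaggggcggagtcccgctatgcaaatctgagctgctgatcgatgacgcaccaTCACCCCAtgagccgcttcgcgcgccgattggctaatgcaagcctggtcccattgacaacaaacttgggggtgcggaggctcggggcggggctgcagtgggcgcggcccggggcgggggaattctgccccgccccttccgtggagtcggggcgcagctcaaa
Fasn: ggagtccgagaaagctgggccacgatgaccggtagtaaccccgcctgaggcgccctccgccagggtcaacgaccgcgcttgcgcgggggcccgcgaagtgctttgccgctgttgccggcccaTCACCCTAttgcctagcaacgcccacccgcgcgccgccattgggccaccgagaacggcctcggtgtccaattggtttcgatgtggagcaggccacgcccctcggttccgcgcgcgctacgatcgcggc
The Srebf2 match is part of the longer run ATCACCCCA, which 79 of the 32851 promoters held. A match is a description of letters in a window and says nothing about binding in these muscles. The start listed for Acaca, at position 84195438 of chromosome 11, lies inside the gene as GENCODE vM21 draws it (84129672 to 84401651), and its upstream sequence is not shown.

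Between 15319471 and 23498162 reads per mouse were counted on genes. Group differences were tested on log2(normalized count + 1) in 1 limma model of the 3 groups, with Benjamini-Hochberg adjustment over the 12303 genes, and a gene was called at an adjusted p under 0.05. Log2 fold changes are on this scale and are given ± SE, and they understate the change of genes with low counts. By this rule 26.5% of all genes were called between semaglutide and vehicle (12.5% higher, 13.9% lower). Between semaglutide + ketone ester and semaglutide 20.7% were called (10.0% higher, 10.7% lower), and between semaglutide + ketone ester and vehicle 0.366% (0.0975% higher, 0.268% lower). Semaglutide mouse 13 stood apart from its group. Across the genes tested, its differences from the mean of all mice had a Pearson r of -0.23 with the mean of the other semaglutide-treated mice, whereas the other 4 mice of that group had r between 0.30 and 0.65 with theirs. With the vehicle mean mouse 13 had an r of -0.11. The other 4 semaglutide-treated mice had -0.68 to -0.51 with it, and each vehicle-treated mouse had 0.19 to 0.42 with the mean of its group mates. Semaglutide mouse 16 was the lowest of all 13 mice in 20.6% of the genes tested and had the most adipocyte RNA. The muscle fibre markers Myh4, Acta1, Tnni2 and 5 others, of which none was called under semaglutide, summed to 1489713 to 2593523 normalized counts in semaglutide-treated mice. The sums were 2402534 to 2878814 in vehicle-treated mice and, with the ketone ester, 3011292 to 3531298.

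The listed genes were expressed at very different levels. Per kilobase of exon, Me1 was the most abundant in vehicle-treated mice, at 1230 ± 173 normalized counts (SD, n = 5). Scd1 followed at 254 ± 168, Srebf1 at 188 ± 53.9 and Scd2 at 110 ± 46.3, and these 3 overlapped within their spread. Thrsp (65.4 ± 16.8), Acly (50.2 ± 4.40), Srebf2 (42.4 ± 1.93) and Fasn (34.6 ± 5.21) formed a middle range, and Acaca lay at 14.4 ± 2.39. Elovl6 was the lowest at 2.40 ± 1.06, with 8 to 22 reads per mouse over all 13 mice, so that only large differences in it could have been seen. Adipoq, a transcript of adipocytes, had 194 ± 138 normalized counts per kilobase, a level between those of Scd1 and Scd2.

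**Figure D1:**
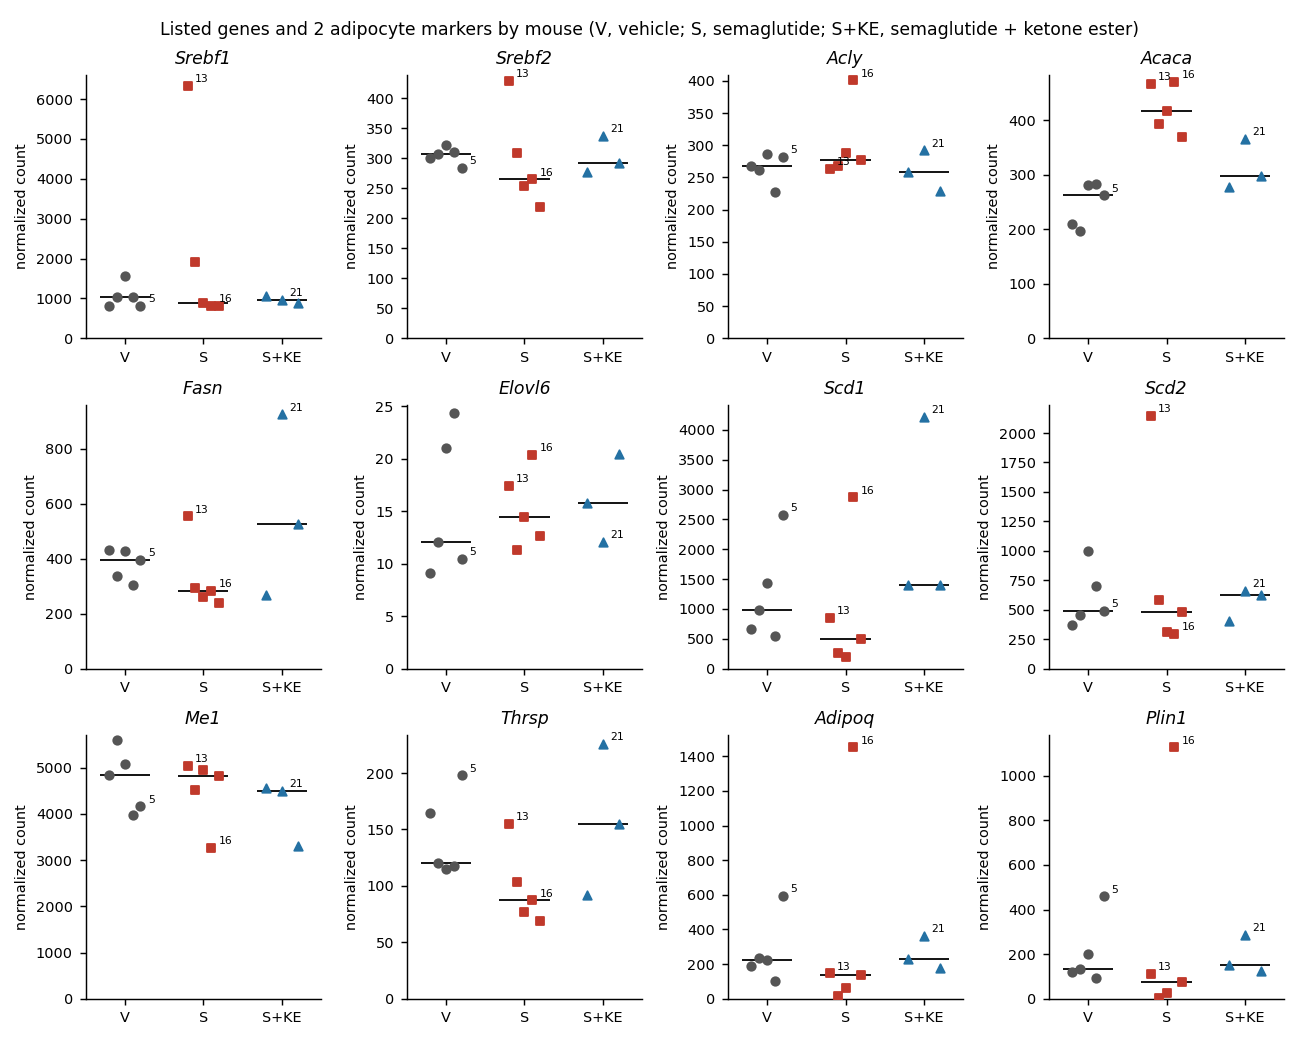
Normalized counts (vertical axis, linear, from 0) of the 10 listed genes and the adipocyte markers Adipoq and Plin1 in each mouse, 1 point a mouse, with the median of each group as a bar (V, vehicle, n = 5; S, semaglutide, n = 5; S+KE, semaglutide + ketone ester, n = 3) and the numbers of mice 5, 13, 16 and 21 beside their points. Acaca is the 1 gene in which all semaglutide-treated mice lie above all vehicle-treated mice, mouse 13 is the highest for Srebf1, Srebf2 and Scd2, and mouse 21 is the highest for Fasn, Scd1 and Thrsp.

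Of the 10 listed genes, 1 was called between semaglutide and vehicle, Acaca, which was higher. The background it is read against is the 26.5% of all genes called. The same gene was the 1 member called between semaglutide + ketone ester and semaglutide, where it was lower (background 20.7%), and none of the 10 was called between semaglutide + ketone ester and vehicle (background 0.366%). At an unadjusted p under 0.05 the numbers were 2, 4 and 1 of 10, beside 38.9%, 34.8% and 10.4% of all genes. The same count of 1, 1 and 0 members came from DESeq2 on the whole reads recovered from the table, and edgeR gave 1, 0 and 0. The median log2 fold change of the 10 genes was -0.04 under semaglutide and 0.02 in the comparison of semaglutide + ketone ester with semaglutide, beside medians of -0.0029 and -0.00024 over all genes tested. The 2 comparisons share the semaglutide-treated mice.

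Acaca (ENSMUSG00000020532, chromosome 11, 84129672 to 84401651, plus strand) encodes the cytosolic carboxylase that commits acetyl-CoA to fatty acid synthesis. Its normalized counts were 210.6, 196, 281, 284 and 262 in vehicle-treated mice 1 to 5. In semaglutide-treated mice 13 to 17 they were 467, 392.2, 418, 470.0 and 369, and in semaglutide + ketone ester-treated mice 19, 21 and 22 they were 277, 366 and 297. Every semaglutide-treated mouse was above every vehicle-treated mouse and above every semaglutide + ketone ester-treated mouse, though mouse 17 (369) and mouse 21 (366) were nearly level. Groups that do not overlap were found in 14.7% of all genes for semaglutide against vehicle, 20.1% for semaglutide + ketone ester against semaglutide and 11.3% for semaglutide + ketone ester against vehicle, and among the 10 listed genes in 1, 1 and 0.

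Against vehicle, Acaca rose under semaglutide by 0.79 ± 0.13 on the log2 scale (limma adjusted p = 0.00065, 95% interval 0.52 to 1.05). The call held under each of the 25 alternatives tried, with a difference between 0.71 and 0.96 and an adjusted p of at most 0.0040. Without mouse 13 the difference was 0.75 (adjusted p = 0.00045), and with the Adipoq and Plin1 level as a covariate it was 0.83 (adjusted p = 0.00072). Against semaglutide, Acaca was lower in semaglutide + ketone ester-treated mice by -0.44 ± 0.14 (limma adjusted p = 0.045). This second call was fragile. Of the 25 alternatives 11 kept it, over a range of -0.67 to -0.34. It was lost with mouse 5, 13, 14, 15, 16, 19 or 22 left out, with limma adjusted p between 0.051 (without mouse 13) and 0.16 (without mouse 19). The log2 difference between semaglutide + ketone ester and vehicle was 0.35 ± 0.14 (limma adjusted p = 0.41). The groups' summed fibre markers stood in the reverse order to Acaca between semaglutide and the other groups. Between semaglutide + ketone ester and vehicle they stood in the same order, with median sums of 3312983 and 2598672. In semaglutide-treated mice 13 to 17 the sums were 2593523, 1847687, 2102307, 1489713 and 1935197. The Acaca counts of these mice were 467, 392.2, 418, 470.0 and 369. The part of fibre RNA in the Acaca difference was not tested.

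**Figure D2:**
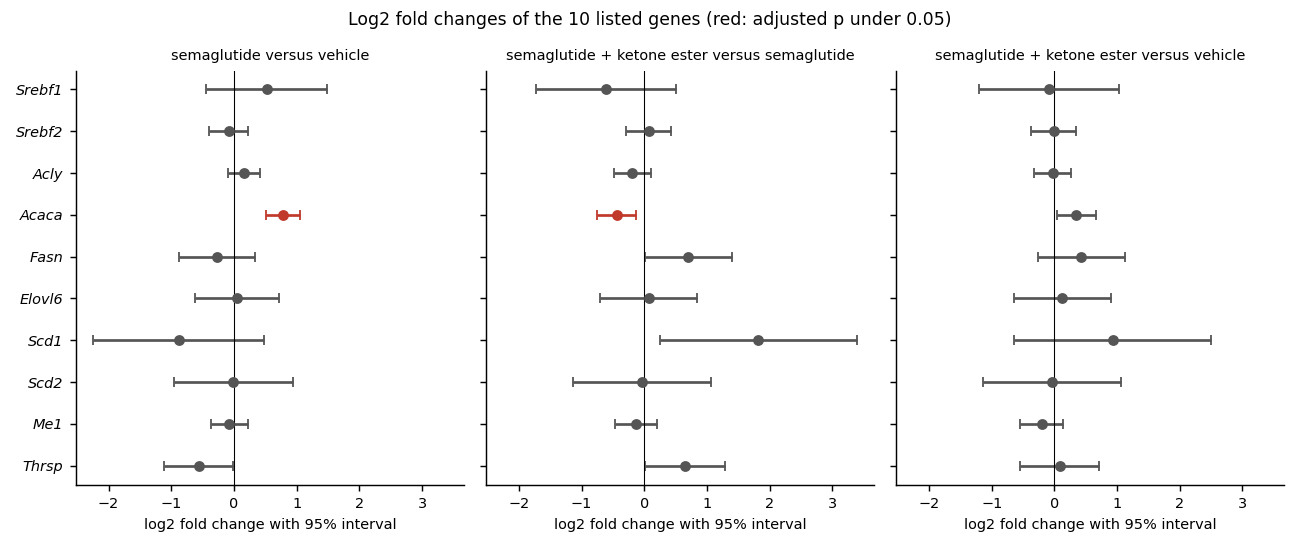
Log2 fold changes (horizontal axis) of the 10 listed genes in the 3 comparisons from limma, with bars for the 95% interval and red for an adjusted p under 0.05. Acaca is called at 0.79 between semaglutide and vehicle and at -0.44 between semaglutide + ketone ester and semaglutide, and the interval of Scd1 runs from 0.25 to 3.39 in the second panel without passing the adjusted threshold.

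Acly, which supplies the acetyl-CoA that Acaca uses, varied little. Its normalized counts were 227 to 286 in vehicle-treated mice (median 268), 263 to 401 in semaglutide-treated mice (median 277) and, in the semaglutide + ketone ester group, 230 to 292 (median 259). Mouse 16 was the highest at 401, and the next highest mouse of all was mouse 21 at 292. The difference between semaglutide and vehicle was 0.16 ± 0.12 (limma adjusted p = 0.35), and that between semaglutide + ketone ester and semaglutide was -0.19 ± 0.14 (adjusted p = 0.36). Without mouse 16 they shrank to 0.051 ± 0.096 and -0.079 ± 0.11 (limma adjusted p = 0.73 and 0.65). Both were called in 1 of 25 alternatives, the one without mouse 13 and with the adipocyte level as a covariate, at 0.31 and -0.35 (limma adjusted p = 0.016 and 0.020).

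Fasn, the synthase, had normalized counts of 430.3, 336, 428, 303 and 396 in vehicle-treated mice. In semaglutide-treated mice they were 553, 294, 259, 283 and 240.2, and in semaglutide + ketone ester-treated mice 266, 925 and 525. Apart from mouse 13, each semaglutide-treated mouse lay below each vehicle-treated mouse, while the semaglutide + ketone ester group spread from the third lowest value of all mice to the highest. Semaglutide differed from vehicle by -0.27 ± 0.28 (limma adjusted p = 0.51), and by -0.48 ± 0.25 without mouse 13 (adjusted p = 0.15). Semaglutide + ketone ester differed from semaglutide by 0.70 ± 0.33 (limma adjusted p = 0.14). The size of this second difference rested on single mice. It fell to 0.27 ± 0.30 without mouse 21 (limma adjusted p = 0.61), and it was called at 0.91 without mouse 13 (adjusted p = 0.023) and at 1.17 without mouse 19 (adjusted p = 0.017), 2 of the 4 alternatives of 25 that called it.

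Thrsp followed Fasn. Its normalized counts were 165, 120.4, 115, 118 and 198 in vehicle-treated mice, 155, 104, 76.6, 87.4 and 68.6 in semaglutide-treated mice, and 92.3, 226 and 155 in semaglutide + ketone ester-treated mice. Again mouse 21 was the highest of all and mouse 17 the lowest. The log2 difference was -0.56 ± 0.26 between semaglutide and vehicle (limma adjusted p = 0.12) and 0.65 ± 0.30 between semaglutide + ketone ester and semaglutide (adjusted p = 0.14). Without mouse 13 both were called, at -0.74 (adjusted p = 0.023) and 0.82 (adjusted p = 0.028). The second was called at 0.98 without mouse 19 (limma adjusted p = 0.040) and was 0.34 ± 0.31 without mouse 21 (adjusted p = 0.51). Over the 13 mice, log2 values of Fasn and Thrsp had a Pearson r of 0.87, the second highest of Fasn with any gene tested and the fifth highest of Thrsp.

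Scd1, the desaturase most abundant in adipocytes, had the widest range of the 10 genes, with the highest mouse 22.0 times the lowest. Normalized counts were 669, 984, 1440.3, 538 and 2572 in vehicle-treated mice, 846, 266, 192, 2867 and 491 in semaglutide-treated mice, and 1394, 4219 and 1395 in semaglutide + ketone ester-treated mice. Mice 21, 16 and 5 were the 3 highest, from 3 different groups, and mice 15 and 14 the lowest. The log2 difference between semaglutide and vehicle was -0.88 ± 0.64 (limma adjusted p = 0.33), and -1.46 ± 0.51 without mouse 16 (adjusted p = 0.053). Between semaglutide + ketone ester and semaglutide it was 1.82 ± 0.73 (limma adjusted p = 0.093). Without mouse 16 the latter became 2.40 and was called (adjusted p = 0.013), and without mouse 21 it was 1.29 (adjusted p = 0.34).

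Scd1 moved with the adipocyte markers. Adipoq, which encodes adiponectin, had normalized counts of 187, 234, 221, 99.8 and 595 in vehicle-treated mice, 147, 16.9, 60.0, 1452 and 136 in semaglutide-treated mice, and 228, 364 and 178 in semaglutide + ketone ester-treated mice. Plin1, which encodes the perilipin that coats the fat droplets of adipocytes, had 120.2, 134, 199, 93.1 and 459, then 113, 4.51, 26.7, 1126 and 75.3, then 149, 287 and 123. Mouse 16 was the highest and mouse 14 the lowest for both, within the same group. Semaglutide differed from vehicle by -0.84 ± 0.85 for Adipoq and -1.31 ± 1.00 for Plin1 (limma adjusted p = 0.50 and 0.36). Without mouse 16 both were called lower, at -1.72 (limma adjusted p = 0.048) and -2.32 (limma adjusted p = 0.034). This was the 1 alternative of 23 that called either gene. Neither was called with mice 5 and 16 left out together. With edgeR and DESeq2 both turned sign, to at most 0.47 for Adipoq and 0.45 for Plin1. In bulk muscle, a difference in the number of adipocytes and one in RNA per adipocyte cannot be told apart.

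The mean log2 level of Adipoq and Plin1 was entered beside the groups in limma to ask which genes followed it within groups. Of all genes tested, 0.935% had a slope called at an adjusted p under 0.05, and among the 10 listed genes it was Scd1 alone. Its slope was 0.61 ± 0.087 log2 units per log2 unit of the adipocyte level (adjusted p = 0.0030), and the same value of 0.61 was obtained without mouse 13 (adjusted p = 0.0016). Without mouse 16 the slope was again 0.61, now ± 0.14, and without mice 5 and 16 it was 0.54 ± 0.16, but neither was called (limma adjusted p = 0.31 and 0.41). The slope of Acly was 0.087 ± 0.027 (limma adjusted p = 0.21), 0.091 ± 0.024 without mouse 13 (adjusted p = 0.060) and 0.045 ± 0.041 without mouse 16. With all 13 mice those of Fasn (0.049 ± 0.083) and Thrsp (0.037 ± 0.076) were smaller than their SE, as were those of Srebf1, Srebf2, Scd2 and Elovl6, while Acaca had 0.042 ± 0.035 and Me1 -0.055 ± 0.038. Without mouse 16 the slopes of Fasn (0.17 ± 0.13), Thrsp (0.13 ± 0.12) and Scd2 (0.20 ± 0.19) exceeded their SE and that of Me1 was 0.038 ± 0.050, and without mouse 13 that of Srebf1 was -0.14 ± 0.054. None of these was called. With the adipocyte level in the model, the difference in Scd1 between semaglutide + ketone ester and semaglutide shrank from 1.82 to 1.10 and passed the threshold (limma adjusted p = 0.047). At adipocyte levels between 7.02 and 7.72, a range chosen after the values had been seen, mice 19 and 22 had 1394 and 1395 normalized counts of Scd1, vehicle-treated mice 1, 2 and 3 had 669, 984 and 1440.3, and semaglutide mouse 13 had 846.

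**Figure D3:**
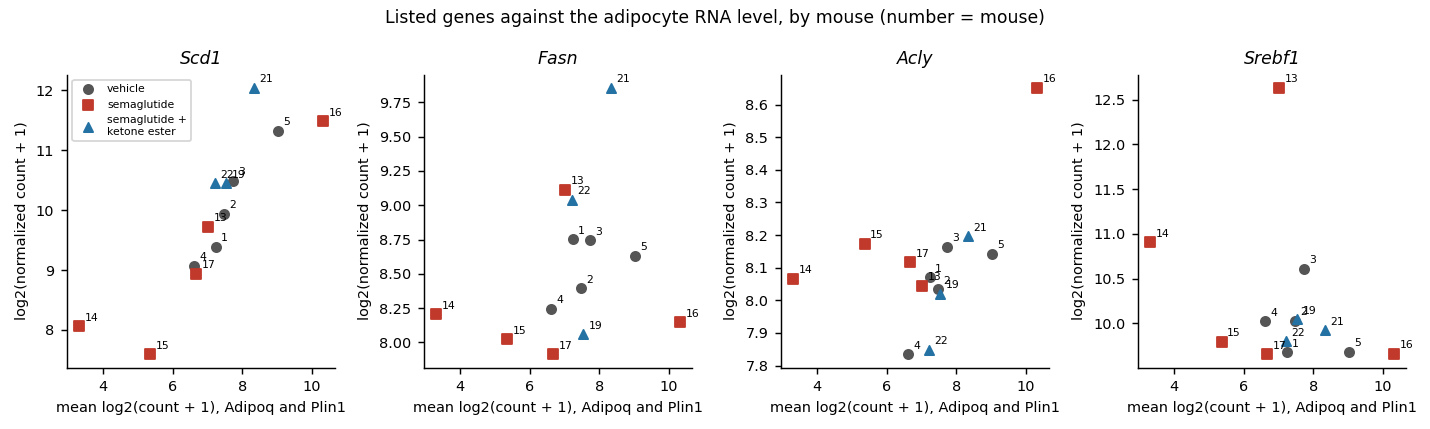
Log2(normalized count + 1) of Scd1, Fasn, Acly and Srebf1 (vertical axes) against the mean log2(normalized count + 1) of Adipoq and Plin1 (horizontal axis) in the 13 mice, with colour and shape for the group and the mouse number beside each point. Scd1 climbs with the adipocyte level, with a slope of 0.61 within groups, while mouse 21 for Fasn and mouse 13 for Srebf1 lie far above mice with the same adipocyte level.

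None of the 12 adipocyte markers was called in any of the 3 comparisons, in which 0.366% to 26.5% of all genes were called. Their summed normalized counts ran from 28121 to 50863 in vehicle-treated mice, 25681 to 86219 in semaglutide-treated mice and, in the semaglutide + ketone ester group, 36944 to 68911, most of it from Car3, which muscle fibres also make. Without Car3 the sums were 4032 to 8182, 2098 to 22718 and 4429 to 5369. The markers Adipoq, Plin1 and Cfd were detected in every mouse, Lep was at 0 in 1 mouse, and Ucp1, the marker of brown adipocytes, was at 0 in 12 of 13.

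Scd2 and Scd1 are neighbours on chromosome 19 with similar coding sequences, and how the authors counted reads that match both is not given in the sources used here, so their values are uncertain to that extent. They did not vary alike, with a Pearson r of 0.07 over the 13 mice. Scd2, the desaturase of brain and myelin among other tissues, had normalized counts of 368, 453, 999, 702 and 491 in vehicle-treated mice, 2148, 585, 309, 297 and 478 in semaglutide-treated mice, and 401, 660 and 626 in semaglutide + ketone ester-treated mice. Mouse 13 had 2.15 times the next highest mouse. The log2 difference between semaglutide and vehicle was -0.01 ± 0.44, and -0.50 ± 0.27 without mouse 13 (limma adjusted p = 0.99 and 0.17). Semaglutide + ketone ester differed from semaglutide by -0.03 ± 0.51, and by 0.45 ± 0.31 without mouse 13 (limma adjusted p = 0.98 and 0.29). Without mouse 16 the 2 differences were 0.22 ± 0.45 and -0.26 ± 0.52 (limma adjusted p = 0.76 and 0.76). Of the Schwann cell and myelin markers, 10 were tested and none was called in any comparison, beside 0.366% to 26.5% of all genes. The summed counts of this list were 1608 in mouse 13, and 955, 1251 and 929 in semaglutide-treated mice 14, 15 and 16. The highest sums of all were 3034 in mouse 17 and 2606 in vehicle mouse 5, with 478 and 491 normalized counts of Scd2. The part of Schwann cell RNA in the Scd2 values was not tested.

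Srebf1 gave the highest single departure. Its normalized counts were 820.5, 1044, 1564, 1039 and 823 in vehicle-treated mice. Semaglutide-treated mice had 6338, 1920.3, 890, 809.9 and 806, and semaglutide + ketone ester-treated mice 1057, 971 and 890.5. Mouse 13 had 3.3 times the next highest mouse, which was mouse 14 of the same group, and 7.46 times the median of its 4 group mates. The other 3 semaglutide-treated mice lay within or just below the range of the vehicle-treated mice. The log2 difference of 0.53 ± 0.45 between semaglutide and vehicle (limma adjusted p = 0.42) became 0.00038 ± 0.24 without mouse 13. Against semaglutide, the semaglutide + ketone ester group differed by -0.61 ± 0.52 (limma adjusted p = 0.44), and by -0.08 ± 0.27 without mouse 13. The reads of the SREBP-1a and SREBP-1c transcripts are summed in this gene's count.

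Srebf2 kept within a narrow range, with 284 to 322 normalized counts in vehicle-treated mice (median 307). Semaglutide-treated mice had 429, 309, 254, 265 and 219, with mouse 13 again the highest of all 13 mice, and semaglutide + ketone ester-treated mice had 277 to 338. Semaglutide differed from vehicle by -0.08 ± 0.14, and by -0.23 ± 0.10 without mouse 13 (limma adjusted p = 0.70 and 0.094). The ketone ester group differed from the semaglutide group by 0.07 ± 0.17, and by 0.22 ± 0.12 without mouse 13 (limma adjusted p = 0.80 and 0.18). Over the 13 mice, Srebf1 had a Pearson r of 0.78 with Srebf2 and 0.85 with Scd2, but 0.26 with Fasn and -0.16 with Scd1. Mouse 13 contributes to the first 2 of these as the highest point in all 3 genes.

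Me1 and Elovl6 were not called in any comparison with the values as deposited. Me1 had 3974 to 5592 normalized counts in vehicle-treated mice, 3267 to 5041 in semaglutide-treated mice and, in the semaglutide + ketone ester group, 3304 to 4555. The log2 difference between semaglutide and vehicle was -0.07 ± 0.14, with a 95% interval of -0.37 to 0.22, and that between semaglutide + ketone ester and semaglutide was -0.13 ± 0.16, with an interval of -0.47 to 0.21. Without mouse 16, the lowest of the 13 for Me1, they were 0.040 and -0.25 (limma adjusted p = 0.83 and 0.21). With the columns rescaled to equal totals, which shifts the median of all genes by -0.24, the second was -0.37 and was called (limma adjusted p = 0.043), in 1 of 25 alternatives. Elovl6 had 9.15 to 24.4, 11.3 to 20.4 and 12.1 to 20.4 normalized counts in the 3 groups in the same order. Its log2 differences were 0.05 ± 0.31 and 0.07 ± 0.36, so that a change of Elovl6 by 0.72 in the first comparison lies within the interval.

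Which mouse was highest differed by gene. Mouse 13 was the highest of all 13 mice for 3 of the 10 genes, mouse 21 for 3, mouse 16 for 2, and mice 2 and 4 for 1 each. For members other than Scd2, the gene tested whose log2 values were most alike over the 13 mice was Zbtb7b for Srebf1 (Pearson r 0.95), Plxna1 for Srebf2 (0.94), Alg14 for Fasn (0.87), Hacd2 for Acly (0.88) and Sh3gl1 for Acaca (0.91). It was Podn for Scd1 (0.91), Rufy3 for Elovl6 (0.82), Thap12 for Me1 (0.96) and Isoc2b for Thrsp (0.95). Zbtb7b was also the second most alike for Scd2 (0.89), and Sh2b1 was the second for Srebf1 (0.93). Among the 5 most alike for Scd1 were Slc7a10 (0.91) and Tmem45b (0.90), and for Acly Bscl2 (0.87) and Rarres2 (0.87). Not all of each 5 are named here, so the genes named do not describe either list as a whole. The correlations given are among the highest of 12302 over 13 points that share their libraries.

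Around the listed genes, 25 of 28 other genes of fatty acid synthesis were tested. Under semaglutide 3 of them were higher and none lower, beside 12.5% and 13.9% of all genes. The list median was 0.20 on the log2 scale. Nr1h3, which encodes the liver X receptor alpha that induces Srebf1 in other tissues, rose from 269 ± 31.8 normalized counts (SD, n = 5) in vehicle-treated mice to 435 ± 59.5 (n = 5), by 0.69 ± 0.13 (limma adjusted p = 0.0016). Acacb, the mitochondrial carboxylase whose malonyl-CoA restrains fatty acid oxidation, had 7805 ± 494 and 11355 ± 2729.9 normalized counts and rose by 0.50 ± 0.16 (limma adjusted p = 0.030). Per mouse counts of Acacb were thus many times those of Acaca in both groups, as is known for muscle. Pgd, an NADPH-producing enzyme of the pentose phosphate pathway, rose by 0.34 ± 0.11 (limma adjusted p = 0.033). The call of Nr1h3 held under all 25 alternatives, that of Acacb under 18 and that of Pgd under 17. The calls of Acacb and Pgd were each lost without mouse 1, 2, 3, 16 or 17, that of Acacb also without mouse 15, and that of Pgd without mouse 4 or 14, with limma adjusted p between 0.053 and 0.086.

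Between semaglutide + ketone ester and semaglutide, 3 of the 25 were higher and 3 lower, beside 10.0% and 10.7% of all genes. The list median was -0.22. Nr1h3 was lower by -0.72 ± 0.15 (265 ± 54.1 normalized counts, n = 3, limma adjusted p = 0.0039). Mid1ip1, whose product makes acetyl-CoA carboxylase polymerize and is a paralog of Thrsp, was higher by 0.75 ± 0.17 (limma adjusted p = 0.0070), with 936 ± 88.3 normalized counts against 570 ± 166 under semaglutide and 542 ± 37.7 under vehicle. Both calls held under all 25 alternatives. Hacd1, a dehydratase of fatty acid elongation that is abundant in muscle, was higher by 1.19 ± 0.36 (limma adjusted p = 0.032), a call that 13 of the 25 alternatives kept. It was lost without mouse 14, 15, 16, 17, 19, 21 or 22, with adjusted p by limma between 0.053 and 0.12.

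**Figure D4:**
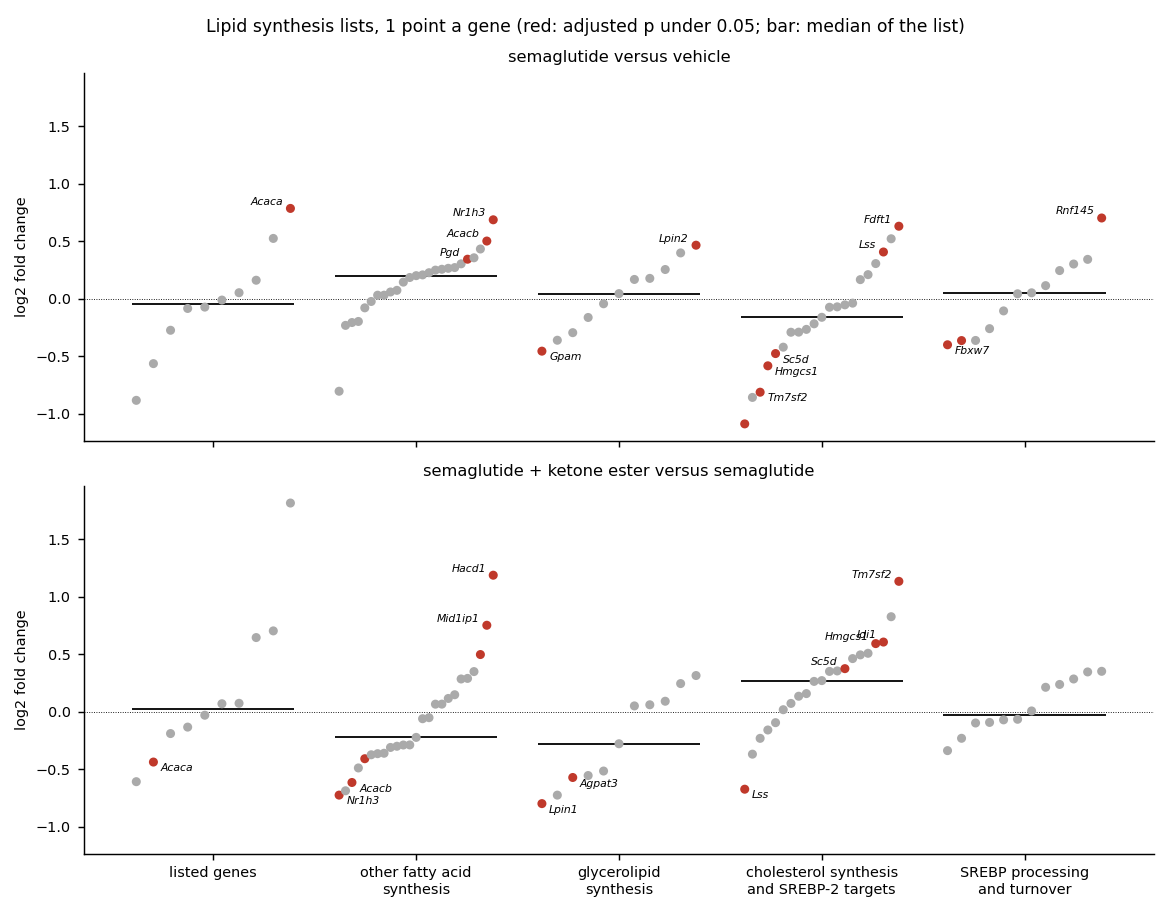
Log2 fold changes (vertical axis) of the tested genes of 5 lists, 1 point a gene in order of size, for semaglutide against vehicle and semaglutide + ketone ester against semaglutide, with red for an adjusted p under 0.05, a name at the red genes that the text describes and a bar for the list median. In the first panel the median of the other fatty acid synthesis genes is 0.20 and that of the cholesterol genes -0.16, and in the second they are -0.22 and 0.27.

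Among genes of cholesterol synthesis and other SREBP-2 targets, 21 of 23 were tested. Under semaglutide 2 were higher and 4 lower, beside 12.5% and 13.9% of all genes, with a list median of -0.16. Hmgcs1, a synthase early in the pathway, fell from 543 ± 30.6 to 364 ± 42.2 normalized counts, a log2 difference of -0.58 ± 0.092 (limma adjusted p = 0.00063). Sc5d, an enzyme near the end of the pathway, fell from 567.7 ± 48.9 to 409 ± 52.4 (-0.48 ± 0.093, limma adjusted p = 0.0024). Fdft1, squalene synthase, went the other way and rose by 0.63 ± 0.17 (limma adjusted p = 0.014), from 1049.7 ± 50.9 to 1692 ± 519. These 3 calls held under all 25 alternatives. Tm7sf2, a sterol reductase, fell by 0.81 ± 0.27 on the log2 scale (limma adjusted p = 0.040). The call of Tm7sf2 was lost in 15 of 25 alternatives, among them each single omission of mouse 1, 2, 3, 4, 5, 14, 15, 16 or 17 (adjusted p 0.056 to 0.10).

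Of the same 21 genes, 4 were higher and 1 lower in semaglutide + ketone ester-treated mice than in semaglutide-treated mice. This stood beside 10.0% and 10.7% of all genes, and the list median was 0.27. Tm7sf2 was higher by 1.14 ± 0.32 (limma adjusted p = 0.021) and Idi1, the isomerase of the isoprene units, by 0.61 ± 0.19 (adjusted p = 0.033). Lss, lanosterol synthase, was lower by -0.67 ± 0.16 (limma adjusted p = 0.0088), with 103 ± 5.38 normalized counts against 166 ± 18.0, and this call held under all 25 alternatives. The call of Tm7sf2 was lost in 4 of 25 alternatives, among them without mouse 21 or 22. That of Idi1 was lost in 8, among them without mouse 15, 16, 17, 21 or 22 (limma adjusted p 0.054 to 0.16 for these omissions). With equal totals Idi1 was at 0.37 and not called. With only the 2 groups in the model neither gene was called.

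The machinery that processes and removes SREBP contributed 12 tested genes of 13. Under semaglutide 1 was higher and 2 lower, beside 12.5% and 13.9% of all genes. Between semaglutide + ketone ester and semaglutide none was called, beside 20.7% of all genes. In that pair 4 of 12 had an unadjusted p under 0.05 in limma, beside 34.8% of all genes. Rnf145, a ubiquitin ligase of the endoplasmic reticulum that acts on SCAP, rose from 143 ± 24.4 to 233 ± 28.2 normalized counts, by 0.70 ± 0.16 (limma adjusted p = 0.0061 and under 0.05 in all 25 alternatives). Fbxw7, which marks nuclear SREBP for degradation among other proteins, fell by 0.40 ± 0.12 (limma adjusted p = 0.026), a call lost without mouse 1, 2, 14, 16 or 17 (adjusted p 0.057 to 0.067). With the columns rescaled to equal totals, which shifts the median of all genes by 0.17, Fbxw7 was at -0.23 and not called. Scap itself differed by 0.04 ± 0.083, Insig1 by 0.30 ± 0.15 and Insig2 by -0.26 ± 0.12 (limma adjusted p = 0.73, 0.15 and 0.13). These 3 genes were named after their values had been seen.

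Of 11 tested glycerolipid synthesis genes out of 13, 1 was higher and 1 lower under semaglutide, beside 12.5% and 13.9% of all genes. Gpam, the mitochondrial acyltransferase that opens triglyceride synthesis, fell from 3672 ± 356 to 2707 ± 494 normalized counts (-0.46 ± 0.13, limma adjusted p = 0.017). Its call was lost in 2 of 25 alternatives, with equal totals (-0.28) and with mice 5 and 16 left out together (-0.41). Lpin2, a phosphatidate phosphatase, rose by 0.47 ± 0.15 (limma adjusted p = 0.036). This call was lost in 10 of 25 alternatives, among them without mouse 1, 2, 3, 4, 5, 16 or 17 (limma adjusted p 0.052 to 0.084 for these omissions). Between semaglutide + ketone ester and semaglutide 2 of the 11 were lower, beside 10.7% of all genes. Lpin1, the lipin of muscle and fat, was lower by -0.80 ± 0.19 (7782 ± 1105 against 13867 ± 3529 normalized counts, limma adjusted p = 0.0095), and Agpat3, an acyltransferase, by -0.57 ± 0.14 (adjusted p = 0.010). Without mouse 21 neither was called (limma adjusted p = 0.060 and 0.061), nor was Agpat3 without mouse 22 (adjusted p = 0.057). With only the 2 groups in the model neither was called. The call of Lpin1 was lost in 2 of 25 alternatives and that of Agpat3 in 3.

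No gene of these 4 pathway lists was called between semaglutide + ketone ester and vehicle, beside 0.366% of all genes. In that pair 3 of 25, 2 of 11, 1 of 21 and 1 of 12 had an unadjusted p under 0.05 in limma, beside 10.4% of all genes. Of the marker lists, 3 of 8 muscle fibre genes were higher in semaglutide + ketone ester-treated than in semaglutide-treated mice, Myh4 by 1.02 ± 0.29, Acta1 by 0.90 ± 0.24 and Tnni2 by 0.51 ± 0.16 (limma adjusted p = 0.025, 0.016 and 0.037). So were 2 of 5 endothelial genes, Kdr by 0.41 ± 0.11 and Cdh5 by 0.31 ± 0.097 (limma adjusted p = 0.019 and 0.034), and none of 6 macrophage genes was called. Of all genes tested, 10.0% were higher and 10.7% lower in this pair. All 5 marker calls were lost without mouse 22 (limma adjusted p 0.058 to 0.18), and at least 1 of them was lost without mouse 1, 2, 3, 5, 14, 15, 17, 19 or 21 (adjusted p 0.050 to 0.12). Other alternatives lost some of them too. With equal totals Cdh5 was at 0.075, Kdr at 0.17 and Tnni2 at 0.27 (limma adjusted p = 0.65, 0.34 and 0.071). Without the filter Myh4, Acta1 and Tnni2 were not called (limma adjusted p = 0.40, 0.26 and 0.19).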

How the data were processed

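RNA from the gastrocnemius of 13 mice was sequenced as stranded mRNA libraries and aligned to mm10 with DRAGEN. DESeq2 is also named in the submitters' processing notes. The program that counted reads on genes, its annotation and its strand setting are not given in the sources used here, so overlapping and antisense genes may share reads. The authors deposited 1 normalized count per gene and mouse, a signal on the scale of counts divided by a size factor. Divided by the smallest step of its column, 100% of the values fell within 0.01 of a whole read, and the reads were recovered in this way. Each column was matched to its mouse by the label that names it, 0 columns of values were left unused, and groups were taken from the treatment label.

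Differences were tested with limma 3.58.1 in R 4.3.3 on log2(normalized count + 1) for genes with a mean of at least 10, with all 3 groups in the model, empirical Bayes moderation with a trend on mean level, and Benjamini-Hochberg adjustment (threshold 0.05). The study's own criterion, a 1-way analysis of variance with a fold threshold, was not used because it gives no test between pairs of groups. The steps were tested on simulated data first. Alternatives were edgeR 4.0.16 and DESeq2 1.42.0 on the recovered reads, other pseudocounts, filters and scalings, sample weights, 2 groups in the model, the mean log2 level of Adipoq and Plin1 as a covariate, and each mouse left out. A fit without the trend, a fit without mice 5 and 16, and a fit without mouse 13 and with the covariate were added after seeing the data, as was the test of the slope on the adipocyte level. Members and lists were chosen with earlier results of these data known. The genes named from each list were those called with the largest changes, up to 5 for semaglutide against vehicle and 3 for each other pair, and for each member the 5 genes with the highest Pearson correlation were found. Genes that these rules name but that are withheld are not reported here, though the counts over lists include them. The positions and exon lengths come from GENCODE vM21 (GRCm38) by symbol, promoters from RefSeq (GRCm38.p6). All sample titles share the same prefix, and what it stands for is not stated in the sources used here, so batches cannot be read from it. The labels do not state how mice were housed or drawn, and the p-values measure the spread between these mice. At 15319471 to 23498162 reads per mouse, a count of 3 reads is at most 1.96e-05% of a library, counting error alone considered. Figures were drawn with matplotlib 3.10.9.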

Additional observations from a re-analysis of the deposited data

Results flagged for a closer look

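In groups of 5 mice, the highest and lowest mouse of each of the 10 listed genes, Adipoq and Plin1 were compared with the rest of the group by the gap to the nearest mouse divided by the range of the group. In 8 of the 24 groups tested the highest mouse was farther out than the 95% critical value of Dixon's test, and none was so at the low end. Chance alone flags about 1 in 20 groups of normally distributed values, and genes of 1 mouse are not independent. The ratios were taken on normalized counts, where a long upper tail favours flags at the high end. The rule was not applied to log2 values.

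Semaglutide mouse 13 was far above its group for Srebf1 (6338 normalized counts, gap 0.80 of the range), Fasn (553, 0.83) and Scd2 (2148, 0.84). Semaglutide mouse 16 was far above its group for Acly (401, 0.82), Scd1 (2867, 0.76), Adipoq (1452, 0.91) and Plin1 (1126, 0.90). Vehicle mouse 5 was far above its group for Adipoq (595, 0.73). The rule can flag only 1 highest mouse per gene and group, so mice 13 and 16 could not share a gene. The genes flagged in mouse 16 include both adipocyte markers.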

How the results depend on the processing

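No paired analysis was possible because the labels give each mouse its own number and the groups share none. For semaglutide against vehicle 1 of the 10 listed genes was called, and 1 or 2 with each mouse left out in turn. The number was 2 with sample weights and 3 without mouse 13 with the adipocyte covariate. For semaglutide + ketone ester against semaglutide the number was 1, and between 0 and 2 with each mouse left out. It was 0 with no filter, TMM scaling, only the 2 groups in the model, edgeR and no trend, 2 with equal totals and with the adipocyte covariate, 3 with sample weights, and 5 without mouse 13 with the covariate. It was 0 in every alternative for semaglutide + ketone ester against vehicle. Of 692 values of the members, Adipoq and Plin1 under alternatives, 611 kept direction and side of the threshold, 14 lost a call, 21 gained one and 46 turned sign, and of 650 for the named list genes 534 kept both and 116 lost a call.

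No sign turned in a called difference. For semaglutide against vehicle, Srebf1 turned to -0.17 without mouse 13 with the covariate. With equal totals, which shift the median of all genes by 0.17, Srebf2 turned to 0.089, Scd2 to 0.16 and Me1 to 0.10. Scd2 also turned to 0.00017 with TMM, 0.35 with edgeR, 0.34 with DESeq2 and 0.17 without mice 5 and 16. Elovl6 turned to -0.074 with sample weights, -0.0046 with edgeR, -0.010 with DESeq2 and -0.16 without mice 5 and 16. Adipoq turned to 0.47 with edgeR and 0.46 with DESeq2, and Plin1 to 0.45 and 0.44. For semaglutide + ketone ester against semaglutide, Srebf1 turned to 0.10 without mouse 13 with the covariate. With equal totals, which shift the median by -0.24, Srebf2 turned to -0.17 and Elovl6 to -0.15. Scd2 turned to 0.34 with sample weights, 0.041 with the covariate and 0.58 without mouse 13 with the covariate. Adipoq turned to -0.51 with edgeR and -0.51 with DESeq2, and Plin1 to -0.55 and -0.55. The cause of these turns was not tested.

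With each mouse left out in turn, sign turned within these ranges. For semaglutide against vehicle they were -0.23 to 0.014 for Srebf2, -0.50 to 0.22 for Scd2, -0.10 to 0.23 for Elovl6 and -0.13 to 0.040 for Me1. For semaglutide + ketone ester against semaglutide they were -0.027 to 0.22 for Srebf2, -0.26 to 0.45 for Scd2, -0.10 to 0.25 for Elovl6 and -0.25 to 0.019 for Me1. Between semaglutide + ketone ester and vehicle, Fasn ranged from -0.0046 to 0.89 and Thrsp from -0.22 to 0.42, with the lowest value without mouse 21 for both.

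The alternative tools called 3311 (edgeR) and 3577 (DESeq2) genes between semaglutide and vehicle, 2557 and 2935 between semaglutide + ketone ester and semaglutide, and 45 and 171 between semaglutide + ketone ester and vehicle, against 3255, 2546 and 45 by limma. With equal totals, 3351 genes were higher and 985 lower for semaglutide against vehicle, and 637 and 3715 for the second pair. Without mouse 13 the calls numbered 4611, 4119 and 132. The low counts of Elovl6 and the 3 mice of the semaglutide + ketone ester group limit the precision.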
